A study of Mus musculus with 38 samples.

Results

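Unc13c, Cdh4, Tgfa, Rora, Auts2 and Apoe are 6 genes whose levels differed between Trim28-KO and control animals in astrocyte nuclei of the adult mouse cortex, of 27998 genes in the deposited nuclei matrices. They were chosen by those very astrocyte values, so their difference in astrocytes is given below as a description and carries no test. How the same genes behave in the other cell types and in 5 bulk RNA-seq experiments was tested. The other cell types and whole Emx1-Cre cortex share animals with the choice, and cortex RNA includes that of astrocytes. They are not independent of it.

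The nuclei came from the cortex of mice 3 months of age, sampled from 2 Trim28-KO animals (Emx1-Cre +/-; Trim28-fl +/+, numbered 60 and 73) and 2 control animals (Emx1-Cre +/-; Trim28-fl +/-, numbered 64 and 65). By this genotype control animals carry Cre as well and have 1 of their Trim28 alleles excised. A figure legend of the paper instead calls the controls of the cortex RNA-seq Cre-negative. The sires also carried a gtRosa allele (+/-), whose state in each animal is not given. Emx1-Cre acts in cortical progenitors of the embryo. The paper saw no Trim28 protein in nearly all pyramidal neurons of KO cortex. It expects the loss in astrocytes and the oligodendrocyte lineage too, whereas interneurons and microglia arise outside the Emx1 lineage and keep Trim28. Bulk RNA-seq of the same cortex covered these 4 animals and 1 more per genotype (KO 76 and control 77). The other 4 bulk experiments used other animals or cells. They are neural progenitor cells (NPCs) from forebrain of Cas9 knock-in mice at embryonic day 13.5, transduced with lentiviral gRNAs to exon 3, 4 or 13 of Trim28 (6 cultures) or to lacZ (2 cultures) and sorted after 10 days of expansion; forebrain nuclei sorted from adults of the Cas9-GFP and the Stop-Cas9-GFP strain, in which Cas9 needs Cre, each with 4 libraries from AAV gRNAs to Trim28 (1 each for exon 3, exon 4, exon 13 and all 3 together, so that no guide was repeated within a strain) and 1 from a lacZ control; and neuronal nuclei of Trim28-flox mice co-injected with AAV vectors for Cre and nuclear GFP under the neuronal Synapsin promoter, 4 libraries labelled KO and 4 labelled control. For the Trim28-flox experiment the paper gives the genotypes +/- and +/+ and names +/+ as the KO. The AAV animals were analysed 2 months after injection. For the Cas9 animals the paper describes injection into the striatum and nuclei sorted by a reporter that depends on the Synapsin promoter.

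Trim28 is an epigenetic co-repressor that KRAB zinc finger proteins bring to DNA, where it nucleates H3K9me3 heterochromatin, with endogenous retroviruses as its best known targets. Astrocytes are the glia that feed neurons, clear transmitter and handle brain lipids. The 6 genes have unlike roles in them. Unc13c (Munc13-3) is a protein of the family that primes vesicles for release, best known from the cerebellum. Cdh4 (R-cadherin) is a classical cadherin of cell adhesion. Tgfa encodes TGF-alpha, a ligand of the EGF receptor. Rora is a nuclear receptor of the retinoic acid receptor-related orphan family, which takes part in the circadian clock. Auts2 is a nuclear regulator that joins Polycomb PRC1 complexes and is linked to neurodevelopmental disorders. Apoe is the main lipid carrier of the brain, made largely by astrocytes, and a risk gene for Alzheimer's disease.

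In GRCm38 (GENCODE vM21 gene models) the genes lie on 5 chromosomes, and each is protein coding. Unc13c is at chr9:73479422-73968966 on the reverse strand and Rora at chr9:68653786-69388246 on the forward strand, 4.091 Mb apart. Cdh4 is at chr2:179442431-179899373 (forward), Auts2 at chr5:131437333-132543344 (reverse), Tgfa at chr6:86195223-86275719 (forward) and Apoe at chr7:19696109-19699188 (reverse). Apoe shares its chromosome with Trim28, 6.665 Mb away. The genes differ widely in span, from 3.08 kb for Apoe and 80.5 kb for Tgfa to 456.9 kb for Cdh4, 489.5 kb for Unc13c, 734.5 kb for Rora and 1106 kb for Auts2.

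RefSeq start sites on GRCm38.p6 were matched for 4 of the 6 genes, Cdh4 and Auts2 being named here without a promoter. The windows of Unc13c and Tgfa, both far lower in KO astrocytes than in control, are shown beside the most upstream window of Apoe, a gene that was higher there. Each runs 5′ to 3′ along the gene, from 250 bases before the start to 50 after it, at chr9:73968988-73969287 (reverse strand) for Unc13c, chr6:86194972-86195271 (forward strand) for Tgfa and chr7:19699139-19699438 (reverse strand) for Apoe. Capitals mark a GC box (GGGCGG) or a CCAAT box (CCAAT) on either strand.
Unc13c: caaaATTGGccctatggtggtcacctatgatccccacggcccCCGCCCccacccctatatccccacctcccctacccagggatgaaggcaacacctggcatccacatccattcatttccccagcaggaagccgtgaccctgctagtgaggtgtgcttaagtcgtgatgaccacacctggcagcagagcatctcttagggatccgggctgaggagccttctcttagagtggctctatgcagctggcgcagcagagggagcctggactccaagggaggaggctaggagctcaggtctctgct
Tgfa: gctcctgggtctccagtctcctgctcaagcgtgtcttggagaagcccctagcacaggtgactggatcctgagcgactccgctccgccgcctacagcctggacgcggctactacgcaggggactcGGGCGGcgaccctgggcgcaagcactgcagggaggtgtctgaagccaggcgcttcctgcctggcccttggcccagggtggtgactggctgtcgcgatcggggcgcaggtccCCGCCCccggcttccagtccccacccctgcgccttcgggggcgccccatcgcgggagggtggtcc
Apoe: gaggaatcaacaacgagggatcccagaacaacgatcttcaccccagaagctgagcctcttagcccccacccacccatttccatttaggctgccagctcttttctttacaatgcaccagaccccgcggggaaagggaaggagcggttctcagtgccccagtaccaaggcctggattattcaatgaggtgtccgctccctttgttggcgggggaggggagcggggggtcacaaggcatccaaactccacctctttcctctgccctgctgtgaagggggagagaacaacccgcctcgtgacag
The Unc13c window held 1 GC box, 1 CCAAT box and 6 CpGs at 59.3% GC. That of Tgfa was the richest of the 3 in CpGs, with 24 at 70.7% GC and 2 GC boxes. The Apoe window held neither motif, with 10 CpGs at 57.7% GC, and that of Rora (chr9:68653536-68653835, not printed) held 28 CpGs and 1 CCAAT box. Over 32851 RefSeq promoters of this length the median was 7 CpGs at 52.7% GC, 35.7% held a GC box and 37.4% a CCAAT box. A TATA box (TATAAA, 13.6% of promoters) and the ROR half-site (AGGTCA, 16.3%) were also searched on both strands and occurred in none of these 4 windows. Apoe had other start sites as well, whose windows are not printed. That at chr7:19698572-19698871 held 2 TATA box matches, and that at chr7:19698349-19698648 held none of the motifs searched.

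Of 14296 deposited nuclei, 13671 passed the filter on detected genes and were assigned to a cell type by clustering and fixed markers. Astrocytes numbered 1185 nuclei or 8.668%, with 339 and 314 from the KO animals and 317 and 215 from the controls. The cluster expressed all 5 astrocyte markers (Gli3, Acsbg1, Slco1c1, Slc7a10, Fgfr3) in each animal, with a summed level of 2842 and 2984 CPM in KO and 2674 and 2805 CPM in control, and no marker of the 5 was called changed in it. CPM, the usual depth-scaled count, are here unique molecular identifier (UMI) counts summed over the nuclei of 1 type in 1 animal and scaled by the normalised total of that sum. Median depth per astrocyte nucleus was alike in both groups, at 3487 and 3560 UMIs in KO and 3925 and 3465 in control. Markers of other cells were present at low level. The summed excitatory neuron markers stood at 211.9 and 202.0 CPM in KO astrocytes and 228.3 and 391.4 in control, and those of leptomeningeal fibroblasts at 330.7 and 340.6 against 199.7 and 174.1, with 1 or 2 of the 5 fibroblast markers at 0 in each animal. Of those 5, Ranbp3l was called higher in KO astrocyte nuclei (+0.87 ± 0.15, adjusted p = 0.00925). Across all libraries 36 barcodes occurred in more than 1 animal.

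In control animals each of the 6 genes was expressed in astrocytes, and their order over cell types differed. Unc13c was highest in oligodendrocyte progenitors (736.4 and 808.0 CPM) and in the 46 pericyte nuclei (863.7 and 695.6), which overlapped, followed by astrocytes (632.5 and 607.5), inhibitory neurons (179.8 and 190.3) and excitatory neurons (20.59 and 16.75), these last 3 without overlap. The 130 leptomeningeal fibroblast nuclei (420.0 and 184.7) overlapped with inhibitory neurons. It was lowest in oligodendrocytes (5.733 and 6.888) and microglia (7.144 and 0), which overlapped. Cdh4 was highest in astrocytes (167.2 and 172.9), then in inhibitory neurons (114.0 and 152.1). Oligodendrocyte progenitors (71.26 and 103.8) and excitatory neurons (72.83 and 80.25) followed with overlapping values, and oligodendrocytes (6.45 and 8.036) and microglia (7.144 and 7.027) were lowest. Tgfa ran the other way. Its highest levels were in oligodendrocyte progenitors (152.4 and 213.2) and microglia (126.2 and 158.1), which overlapped, then in oligodendrocytes (72.38 and 66.58) and astrocytes (27.7 and 35.8), and it was scarce in neurons, with 1.896 and 1.852 CPM in excitatory nuclei.

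Rora was highest in astrocytes (3641 and 4280 CPM), above fibroblasts (3194 and 3396), pericytes (2408 and 3180) and oligodendrocyte progenitors (2342 and 2716), the latter pair with overlap, whereas excitatory (1615 and 2027) and inhibitory neurons (1406 and 1754) overlapped, and microglia (95.25 and 221.4) overlapped with oligodendrocytes (152.6 and 220.4). Auts2 showed little order among astrocytes, oligodendrocyte progenitors and both neuron classes, which all lay between 1460 and 1765 CPM, was higher in fibroblasts (2151 and 2465), and was low in microglia (277.6 CPM at most) and in pericytes (78.52 and 99.37 CPM, from 3 and 2 UMIs). Apoe was a glial gene. It reached 1948 and 953.3 CPM in astrocytes against 29.4 and 16.17 in excitatory neurons, and its glial types overlapped because the 2 control animals differed.

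**Figure D1:**
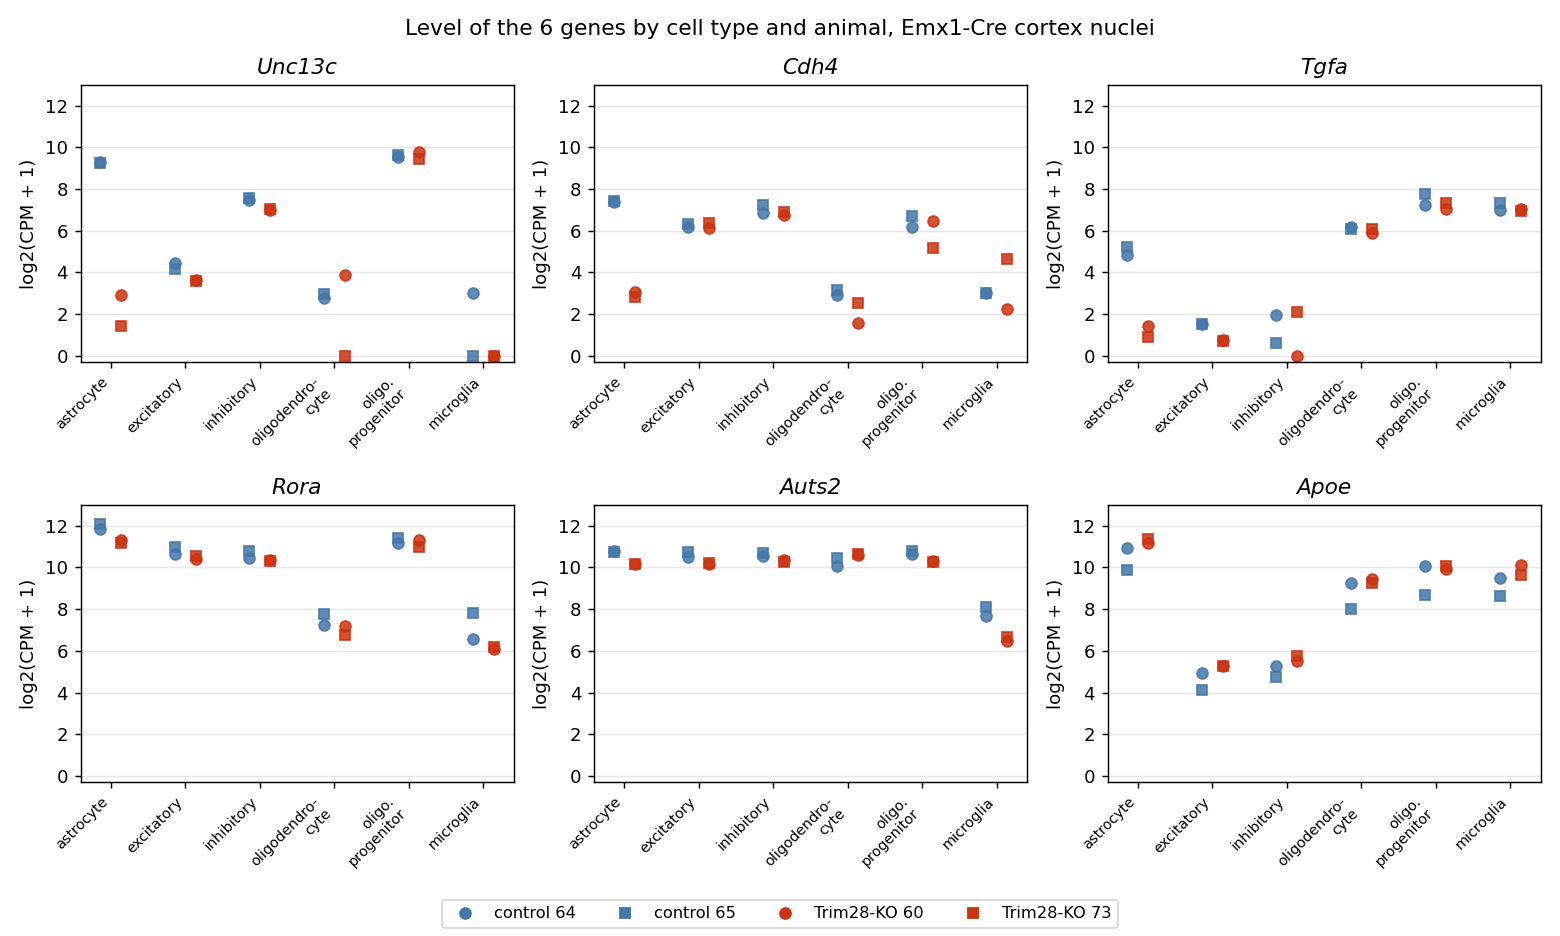
Level of each gene, as log2(CPM + 1), in 6 cell types of the Emx1-Cre cortex nuclei, with 1 point for each of the 2 control (64, 65) and 2 Trim28-KO animals (60, 73). The KO points of Unc13c, Cdh4 and Tgfa lie far below the control points in astrocytes (Unc13c 6.65 and 1.71 CPM against 632.5 and 607.5), while those of Unc13c in oligodendrocyte progenitors lie among the controls.

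Astrocytes of the KO animals were almost devoid of Unc13c. The KO animals gave 8 and 2 UMIs, or 6.65 and 1.71 CPM, where the controls stood at 632.5 and 607.5 CPM, or 1290 UMIs together. Pooled over animals, control astrocytes held 148 times the Unc13c UMIs of KO astrocytes per UMI sequenced (95% interval 80.1 to 309, counting error only). The fitted log2 fold change of KO over control was -7.16 ± 0.28 (SE, n = 2 and 2), the lowest of the 10297 genes tested in astrocytes. Cdh4 had the second and Tgfa the third lowest value.

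Cdh4 stood at 7.48 and 5.99 CPM (9 and 7 UMIs) in KO astrocytes and at 167.2 and 172.9 CPM (211 and 140 UMIs) in control, a log2 fold change of -4.63 ± 0.25 and a ratio of 25.1 (15.3 to 44.4). Tgfa gave 2 UMIs and 1 UMI in KO, or 1.66 and 0.856 CPM, and 35 and 29 UMIs, or 27.7 and 35.8 CPM, in control. Its ratio of 24.4 had a wide interval (7.99 to 122), since the KO animals gave 3 UMIs together, and its fitted log2 fold change was -4.51 ± 0.53. For all 3 genes the residual level in KO was a few percent of control or less, at 0.677% for Unc13c, 3.98% for Cdh4 and 4.09% for Tgfa. In each gene the 2 animals of a group were close to each other relative to the distance between groups.

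Counted per nucleus, the same UMIs give shares that describe this difference again and add no test. Their binomial intervals treat nuclei as independent and leave out the spread between animals. After each astrocyte nucleus was thinned to 1000 UMIs, which left out none of them, an Unc13c UMI was found in 39.1% (33.7 to 44.7%, exact binomial 95% interval) and 41.4% (34.7 to 48.3%) of control nuclei, in 1.18% (0.322 to 2.99%) of those of KO 60 and in 0% of those of KO 73 (upper bound 1.17%). Without thinning the shares were 70.03% and 73.02% against 1.77% and 0.637%. In oligodendrocytes, where the gene was near its lowest, thinned shares were 0.353% and 0.875% in control and 1.72% and 0% in KO (median depth 2045 to 2444 UMIs against 3465 to 3925 in astrocytes), so that the astrocyte share in KO was in the range of this background. Cdh4 was found in 14.5% and 15.4% of thinned control nuclei and in 0.295% and 0.319% of KO nuclei. For Tgfa the thinned shares were 2.21% and 2.79% against 0% in both KO animals, with upper bounds of 1.08% and 1.17%, and these are close to the level of a single UMI, so that no size is read from them.

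**Figure D2:**
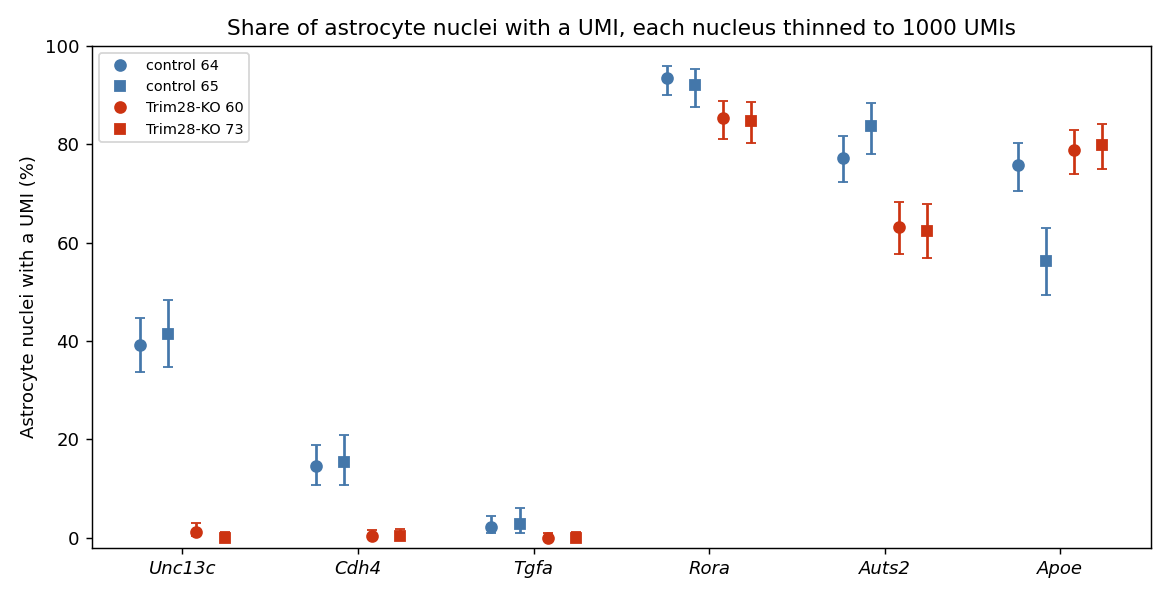
Percent of astrocyte nuclei with at least 1 UMI of each gene after thinning to 1000 UMIs, by animal, with exact 95% binomial intervals over nuclei. Unc13c and Cdh4 drop from 39.1% and 41.4%, and 14.5% and 15.4%, of control nuclei to at most 1.18% of KO nuclei, whereas Apoe differs mainly between the 2 control animals (75.7% in control 64 and 56.3% in control 65).

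The other 3 genes differed by far less. Rora was at 2591 and 2313 CPM in KO astrocytes against 3641 and 4280 in control, a log2 fold change of -0.69 ± 0.12, and ranked 643 from the lowest. Auts2 was at 1164 and 1167 against 1745 and 1688 CPM (-0.56 ± 0.11, rank 933). Both are among the longest genes, and span itself moved with genotype in these nuclei. The median log2 fold change in astrocytes was -0.28 over the 317 tested genes of 400 kb or more and +0.26 over the 1903 genes under 10 kb. The part of this shift in the lower Rora and Auts2 values was not tested. Unc13c and Cdh4 are also longer than 400 kb.

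Apoe was higher in KO astrocytes, at 2276 and 2598 CPM, than in control 64 (1948) and control 65 (953.3). The log2 fold change of +0.74 ± 0.24 depended on control 65, whose value was below that of the other control by more than the distance from control 64 to either KO animal. It was +0.32 without control 65 and +1.36 without control 64. In thinned nuclei the Apoe share was 78.8% and 79.9% in KO, 75.7% in control 64 and 56.3% in control 65. Apoe spans 3.08 kb and so belongs to the short genes, whose median was +0.26.

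The comparison with other cell types asks whether a difference is shared. These are other nuclei, but of the same 4 animals, so they are not independent of the animals by which the genes were chosen. Whether the astrocyte change differs in size from that in another type was not tested for the same reason. Counts were fitted per type with edgeR's quasi-likelihood test, and a gene was called at a Benjamini-Hochberg adjusted p under 0.05. In astrocytes 215 of 10297 genes were called (2.09%), among them 5 of the 6 genes, Apoe being the exception. Since the genes were chosen by this comparison, nothing is read from that count.

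In excitatory neurons, which lose Trim28 from the same progenitors, Unc13c and Tgfa fell. They were 2 of the 6 genes, against 6.84% of all genes tested. Unc13c was at 11.28 and 10.9 CPM (302 and 292 UMIs) in KO and 20.59 and 16.75 CPM (456 and 371 UMIs) in control, without overlap, and its log2 fold change was -0.75 ± 0.15 (adjusted p = 0.0348). Tgfa, close to the detection limit there, was at 0.672 and 0.635 CPM (18 and 17 UMIs) against 1.896 and 1.852 CPM (42 and 41 UMIs), a change of -1.51 ± 0.29 (adjusted p = 0.0318). Both calls rested on all 4 animals. Neither gene was called when any 1 animal was left out, nor without the filter on low counts (adjusted p = 0.144 and 0.126), while the fold changes kept their direction in each of these fits.

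The summed astrocyte markers stood at 0.314% of their astrocyte level in excitatory nuclei of both controls and at 0.331% and 0.361% in KO. At that share of the astrocyte level, Unc13c would reach 1.99 and 1.91 CPM in control excitatory nuclei and Tgfa 0.0871 and 0.112 CPM. The part of free astrocyte RNA in these differences was not tested.

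Cdh4 in excitatory neurons did not follow. It was at 68.47 and 82.04 CPM in KO and 72.83 and 80.25 in control, with overlapping animals. Its log2 fold change was -0.02 ± 0.12 with an approximate 95% interval from -0.26 to 0.22. Intervals of fold changes here use the normal multiple of the SE, which is too narrow for so few animals. Auts2 at 1155 and 1204 against 1460 and 1686 CPM (-0.42 ± 0.11, adjusted p = 0.0643) and Rora at 1366 and 1483 against 1615 and 2027 CPM (-0.35 ± 0.13, adjusted p = 0.138) were lower in both KO animals but were not called. The median of long genes in these nuclei was -0.26, close to both values. Apoe was at 37.47 and 37.64 against 29.4 and 16.17 CPM (+0.72 ± 0.25, adjusted p = 0.117). At the marker share given above, Apoe would reach 2.99 to 9.37 CPM in the 4 animals.

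The Unc13c difference was uneven among excitatory neurons. At a finer clustering (resolution 0.5), the cluster led by Pld5 and Rorb held 10 and 11 Unc13c UMIs in KO, or 2.64 and 2.21 CPM, and 69 and 83 UMIs in control, or 20.1 and 21.7 CPM. The cluster led by Gm20711 and Il1rapl2 had 8.67 and 6.28 CPM in KO and 28.6 and 13.4 in control. In the cluster led by Tshz2 and Vwc2l, where the gene was most abundant among excitatory clusters, KO animals had 334.2 and 466.9 CPM and controls 283.2 and 339.7, with overlap. In the cluster led by Foxp2, Unc13c was 25.4 and 7.08 CPM in KO and 6.45 and 5.13 in control. The Foxp2 cluster held 20 of the 42 and 12 of the 41 Tgfa UMIs of control excitatory nuclei, or 6.79 and 4.11 CPM, and none of those in KO. It also contained fewer KO nuclei (163 and 77 against 269 and 273), and 3 counts, the floor used here, would be up to 4.25 CPM in a KO animal, so that the value of KO 73 was not distinguishable from control 65 at this depth. Clusters were described and not tested, and Rorb is itself 1 of the genes called in excitatory nuclei (-0.78 ± 0.12, adjusted p = 0.0195).

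**Figure D3:**
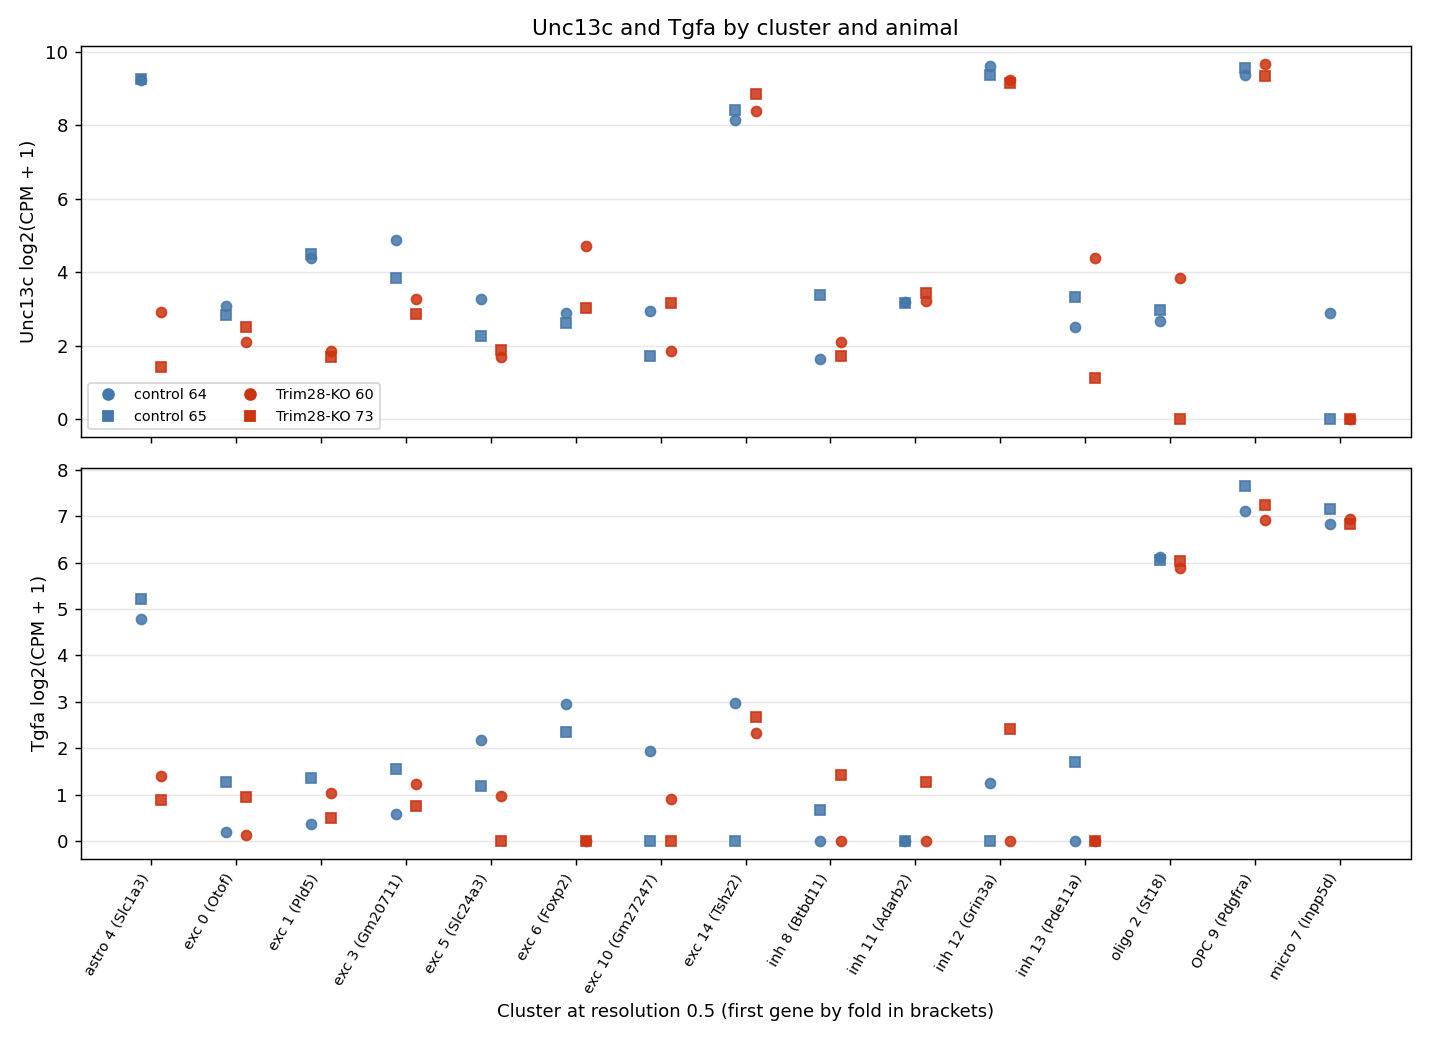
Unc13c and Tgfa by cluster at resolution 0.5, as log2(CPM + 1) per animal, for clusters with at least 20 nuclei in each animal and with the leading gene of each cluster in brackets. Unc13c in the astrocyte cluster and in excitatory cluster 1 (Pld5) is low in both KO animals (2.64 and 2.21 against 20.1 and 21.7 CPM in cluster 1), whereas in inhibitory cluster 12 (Grin3a), excitatory cluster 14 (Tshz2) and oligodendrocyte progenitor cluster 9 (Pdgfra) all 4 animals are high.

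In oligodendrocyte progenitors, also of Emx1 descent, Unc13c was not called. They had 886.6 and 695.9 CPM in KO and 736.4 and 808.0 in control, a log2 fold change of +0.04 ± 0.16 with an interval from -0.27 to 0.35. Tgfa in progenitors was 129.5 and 159.8 against 152.4 and 213.2 CPM (-0.31 ± 0.23, interval -0.77 to 0.14) and Cdh4 87.25 and 35.2 against 71.26 and 103.8 CPM (-0.49 ± 0.37, interval -1.22 to 0.24), both with overlapping animals. None of the 6 genes was called in progenitors, where 0.299% of all genes were. Progenitors gave 3 and 10 Trim28 UMIs in KO and 5 and 1 in control, which does not check the deletion in them.

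In oligodendrocytes Tgfa was at 58.6 and 66.87 CPM in KO and 72.38 and 66.58 in control (-0.16 ± 0.27, interval -0.69 to 0.38). Unc13c (7 and 0 UMIs in KO, 8 and 6 in control) and Cdh4 (1 and 2 against 9 and 7 UMIs) were too sparse there to be tested. Auts2 was the exception in direction, at 1572 and 1614 CPM in KO and 1078 and 1411 in control, without overlap, but its change of +0.36 ± 0.15 was not called (adjusted p = 0.293). It was called without control 65 (+0.55, adjusted p = 0.0035). None of the 4 genes tested was called in oligodendrocytes with all animals, against 2.98% of all genes, and Rora (144.6 and 107.5 against 152.6 and 220.4 CPM, -0.54 ± 0.23) and Apoe (699.3 and 618.6 against 616.3 and 252.6 CPM, +0.59 ± 0.25) were called without control 64 (adjusted p = 0.0137 and 7.94e-11), a fit with 1 control animal that is assumed to vary like the others.

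Inhibitory neurons and microglia keep Trim28 in this cross. In inhibitory neurons Unc13c was at 126.8 and 129.9 CPM in KO and 179.8 and 190.3 in control, without overlap, and its change of -0.53 ± 0.12 did not pass the correction (adjusted p = 0.144). Its level was lower in both KO animals than in both controls. The log2 fold change was -0.57 without control 64 and -0.48 without control 65, fits that leave 1 control animal. The cluster led by Grin3a and Sst carried most of the gene, at 599.5 and 567.9 CPM in KO and 790.4 and 666.6 in control. Cdh4 was at 108.8 and 117.7 against 114.0 and 152.1 CPM (-0.23 ± 0.15, interval -0.52 to 0.06) and Tgfa was at 0 and 14 UMIs against 10 and 2, too few to show a change of any size (-0.03 ± 1.00).

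With edgeR no gene at all passed the threshold in inhibitory neurons (0% of 12690 genes, with 1840 at an unadjusted p under 0.05 and 13 called by DESeq2). The count rested on single animals, since without control 64 there were 2907 calls, 5 of the 6 genes among them, and Tgfa was the exception. In microglia, where likewise 0% of 6087 genes were called (430 at an unadjusted p under 0.05 and 1 by DESeq2), Tgfa was at 132.2 and 123.0 CPM in KO and 126.2 and 158.1 in control (-0.14 ± 0.28, interval -0.68 to 0.41). Unc13c and Cdh4 were near the floor there and were not tested. Auts2 at 86.86 and 99.37 CPM, below both controls (277.6 at most, -1.35 ± 0.28, adjusted p = 0.176) and Rora at 67.98 and 70.98 against 95.25 and 221.4 CPM (-1.14 ± 0.40, adjusted p = 0.485) were lower in both KO animals without passing the correction. The median of genes of 400 kb or more was -0.66 in microglia, the lowest of the 6 types, and its part in these values was not tested.

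Rora and Auts2 thus had lower KO than control means in most types, whether or not the type loses Trim28. Rora was lower in KO with no overlap in astrocytes, excitatory neurons, inhibitory neurons, oligodendrocytes and microglia, and overlapped in oligodendrocyte progenitors (2561 and 2020 against 2342 and 2716 CPM). Control 65 had the highest Rora of the 4 animals in each of the 6 types. Auts2 was lower with no overlap in 5 types, oligodendrocytes being the exception. How many of all genes separate so in each type was not counted, and nothing is read from the number of types. The median of genes of 400 kb or more was below 0 in each of the 6 types (-0.20 to -0.66), and that of genes under 10 kb was above 0 (+0.24 to +0.32).

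Apoe was higher in both KO animals than in both controls in astrocytes, both neuron classes, oligodendrocytes and microglia (1095 and 799.7 against 731.1 and 390.0 CPM in microglia, +0.74 ± 0.25, adjusted p = 0.485). In oligodendrocyte progenitors the groups overlapped (979.5 and 1061 against 1079 and 415.2 CPM). Its fitted change lay between +0.43 and +0.74 in all 6 types and was called in none of them. Control 65 had the lowest Apoe of the 4 animals in each of the 6 types and in leptomeningeal fibroblasts (355.3 CPM, against 554.1 to 1578 in the other 3 animals), so the value followed the animal across types.

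**Figure D4:**
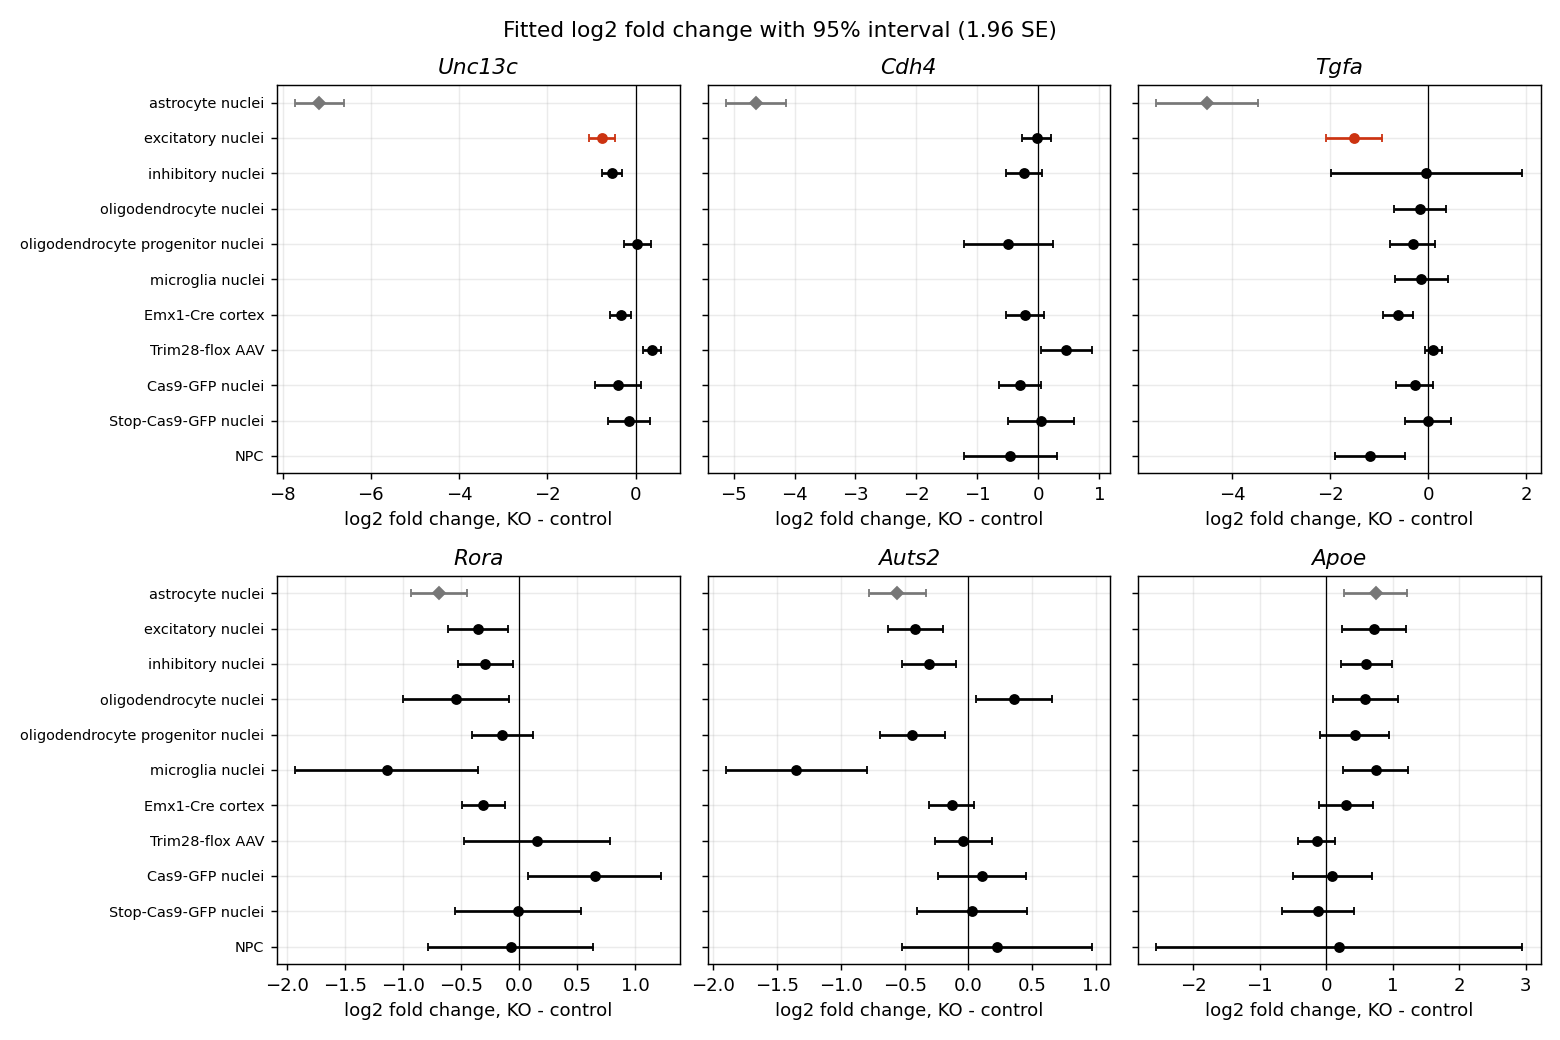
Fitted log2 fold change of KO over control with its approximate 95% interval, from the normal multiple of the SE, for each gene in 5 bulk experiments and 6 cell types of nuclei. Auts2 in the NPC, Trim28-flox and Emx1-Cre cortex libraries is from TEtranscripts gene counts. The astrocyte values of Unc13c, Cdh4 and Tgfa (-7.16, -4.63 and -4.51) stand apart from the other comparisons, while Rora, Auts2 and Apoe have values of like size in several cell types.

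In whole Emx1-Cre cortex the deletion itself was seen in each KO animal. Trim28 was at 6.08, 8.53 and 8.88 CPM in KO 60, 73 and 76 and at 20.87, 18.98 and 21.42 CPM in control 64, 65 and 77 (-1.39 ± 0.15, adjusted p = 0.000378). In the nuclei, counted from transcript 3′ ends, astrocytes gave 6 and 6 Trim28 UMIs in KO and 7 and 7 in control, which does not check the deletion. Trim28 was not called in excitatory nuclei either (-0.30 ± 0.17, adjusted p = 0.302). None of the 6 genes was called in bulk, where the call also needed an absolute log2 fold change over 0.5 and 1.33% of all genes passed. In bulk tissue fewer cells of a type and less RNA per cell cannot be told apart. Cortex RNA includes that of astrocytes, and animals 60, 73, 64 and 65 also gave the nuclei that chose the genes. Values of the cortex are therefore not independent of the choice.

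Tgfa came closest. It was at 7.50, 9.05 and 9.99 CPM in KO and 11.6, 13.4 and 15.4 CPM in control, or 8.84 ± 1.25 against 13.4 ± 1.90 (SD, n = 3 each), without overlap, and its change was -0.61 ± 0.16 (adjusted p = 0.105). It was called by DESeq2 (adjusted p = 0.0465), without the filter on low counts (adjusted p = 0.00253) and without KO 76 (-0.69, adjusted p = 0.0192). KO 76 stood apart in its normalisation, with a normalised total of 12619100 for 16748967 counts. Oligodendrocyte markers, from cells with more Tgfa than astrocytes, were also lower in KO cortex, with summed levels of 1832, 1742 and 1808 CPM against 2185, 2398 and 2233. The nuclei of these animals held 233 and 163 oligodendrocytes in KO and 569 and 343 in control. Astrocyte markers overlapped (174, 235 and 222 against 203, 190 and 232 CPM), as did those of progenitors (98.1, 110 and 124 against 112, 108 and 125) and of microglia (250, 285 and 309 against 247, 271 and 319). Markers of leptomeningeal fibroblasts were lower without overlap (11.37, 17.99 and 16.48 against 29.8, 25.5 and 22.0 CPM), with Col1a2 (-1.08 ± 0.21, adjusted p = 0.0244) and Slc47a1 (-3.02 ± 0.50, adjusted p = 0.00828) of the 5 called. Those of endothelial cells were also lower without overlap (157.2, 189.1 and 179.3 against 193.8, 198.4 and 237.6 CPM). Fibroblast nuclei of the controls held Tgfa at 89.08 and 49.74 CPM, from 7 UMIs each. The part of any of these markers in the lower Tgfa was not tested.

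Unc13c in the cortex was at 17.2, 20.2 and 21.7 CPM in KO and 23.4, 22.9 and 28.1 in control, without overlap (-0.34 ± 0.12, adjusted p = 0.351), and Cdh4 at 7.50, 9.56 and 9.27 against 8.60, 10.4 and 11.6 CPM, with overlap (-0.22 ± 0.16, interval -0.53 to 0.09). Rora was at 158, 151 and 131 against 188, 172 and 183 CPM, without overlap (-0.31 ± 0.10, adjusted p = 0.231). Apoe was at 216, 346 and 479 CPM in KO and 295, 279 and 271 in control, with overlap (+0.30 ± 0.21, adjusted p = 0.820). Control 65, low for Apoe in every nuclei type tested, was level with the other controls in bulk.

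Auts2 needs another count in bulk. The RefSeq annotation of GRCm38.p6 holds 1 Auts2 record on its chromosome and 1 on another scaffold, whereas the other 5 genes have 1 record each. Uniquely mapped reads counted at Auts2 were 0.631 to 8.65% of its TEtranscripts count, which keeps reads with several matches, while for the other 5 genes tested they were near that count. Taken from TEtranscripts, Auts2 in cortex was at 41.5, 43.1 and 43.0 CPM in KO and 44.5, 45.3 and 49.8 in control (-0.13 ± 0.09, adjusted p = 0.805), where the sparse unique reads gave -0.69 ± 0.30 (adjusted p = 0.516). The former is used for Auts2 in bulk throughout.

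**Figure D5:**
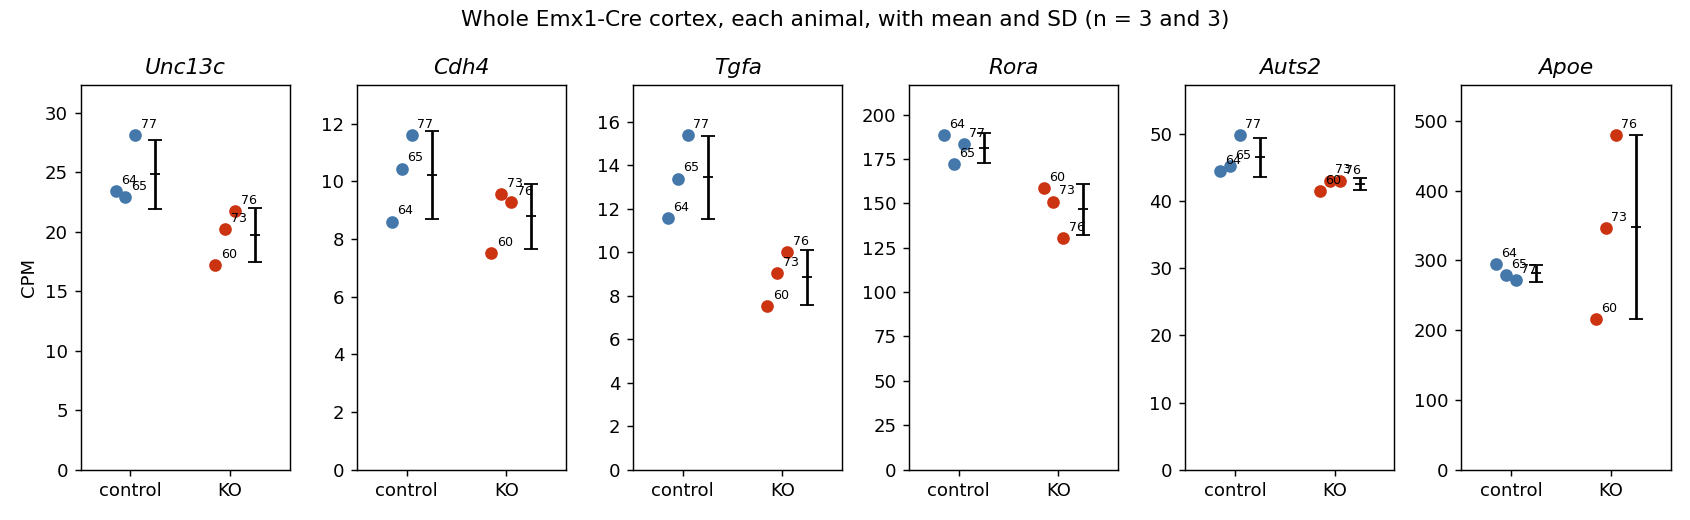
CPM of each gene in whole Emx1-Cre cortex, for 3 control and 3 Trim28-KO animals with their numbers, and the mean with SD; Auts2 is from TEtranscripts counts. Tgfa, Unc13c, Rora and Auts2 are lower in all KO animals without overlap (Tgfa 7.50 to 9.99 against 11.6 to 15.4 CPM), and Apoe spreads from 216 to 479 CPM within KO. The share of all genes without overlap was not counted, so this is a description.

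The other 4 bulk experiments are independent samples, and none of the 6 genes was called in any of them. The calls over all genes there were few, at 0.194% in NPCs, 0.0224% in Cas9-GFP nuclei, 0.00567% in Stop-Cas9-GFP nuclei and 0.0409% in Trim28-flox nuclei. The checks of Trim28 RNA differed. Trim28 fell in NPCs (-1.82 ± 0.25, adjusted p = 0.0310). Its RNA was not called in Cas9-GFP nuclei (-0.53 ± 0.15, adjusted p = 0.437) or Stop-Cas9-GFP nuclei (-0.03 ± 0.25), each with 1 lacZ control. This does not measure editing or protein. For both strains the paper reports efficient editing by amplicon sequencing and a loss of Trim28 protein in neurons by staining. In the Trim28-flox experiment Trim28 RNA was higher in the libraries labelled KO (+2.26 ± 0.10, adjusted p = 2.74e-06), at 130.6 to 146.4 against 25.65 to 31.63 CPM. This goes against the labels and against the paper, which reports a loss of the transcript in its KO. Directions there are given as the labels have them. Over all bulk libraries total counts ran from 9147438 to 25345083.

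In NPCs Tgfa was lower in each KO culture, with 9.30, 3.33, 4.37, 5.01, 4.14 and 3.27 CPM against 11.5 and 11.1 in lacZ, a change of -1.19 ± 0.36 that did not pass the correction (adjusted p = 0.545). The highest was 1 of the 2 cultures guided to exon 3, and without it the change was -1.48 and called (adjusted p = 0.0287). Cdh4 ranged from 44.3 to 165 CPM (median 138) in KO and was 158 and 190 in lacZ, with overlap (-0.46 ± 0.39). Unc13c was barely detected in these cells, with 6 counts in that same culture, 0 in the other 5 KO cultures and 6 and 1 in lacZ, and was not tested. Rora overlapped (36.8 to 84.5 against 51.0 and 75.9 CPM, -0.07 ± 0.36), as did Auts2 (8.88 to 26.9 against 13.9 and 18.8 CPM, +0.22 ± 0.38). Apoe varied over a wide range among KO cultures, from 24.7 to 1005 CPM, and between the lacZ cultures (327 and 63.0), so that the interval of its change (-2.56 to 2.95) covers a large fall and a large rise.

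In adult forebrain nuclei sorted after AAV injection Unc13c, Cdh4 and Tgfa were well expressed. In Cas9-GFP animals Unc13c was at 42.4 to 72.3 CPM (median 52.0) with Trim28 gRNAs and 72.1 with lacZ (-0.40 ± 0.27, interval -0.92 to 0.13), and Tgfa at 91.3, 129.9, 127.5 and 114.0 against 139.9 CPM (-0.27 ± 0.20, interval -0.66 to 0.11). Rora was higher in each of the 4 treated animals (32.1 to 52.0 CPM) than in the lone lacZ animal (26.7), at +0.65 ± 0.29 and an adjusted p of 0.608. In Stop-Cas9-GFP animals all 6 genes lay between -0.15 and +0.04, with Unc13c at -0.15 ± 0.24 (interval -0.61 to 0.32), Cdh4 at +0.04 ± 0.28 (-0.50 to 0.59) and Tgfa at -0.00 ± 0.24 (-0.47 to 0.47). In the Trim28-flox experiment Unc13c was at 43.4, 43.2, 40.2 and 38.6 CPM in libraries labelled KO and 33.9, 29.6, 34.1 and 29.6 in those labelled control, without overlap (+0.38 ± 0.10, adjusted p = 0.873). Tgfa was +0.11 ± 0.09, Cdh4 +0.46 ± 0.21, Rora +0.16 ± 0.32, Apoe -0.14 ± 0.14 and Auts2 -0.04 ± 0.11, all with overlapping libraries and uncalled.

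Other genes of each gene's pathway were counted by lists, beside which 2.09% of all genes were called in astrocytes, 6.84% in excitatory neurons, 2.98% in oligodendrocytes and 1.33% in cortex. Of 19 ligands and receptors of the EGF receptor family, 11 were tested in astrocytes. Beside Tgfa itself 1 fell and none rose, namely Nrg1, a neuregulin, with 94.71 and 103.6 CPM in KO and 168.8 and 272.9 in control (-1.14 ± 0.22, adjusted p = 0.0180). Nrg1 also fell in oligodendrocyte progenitors (-1.07 ± 0.16, adjusted p = 0.00361), where Tgfa was not called. Egf fell in excitatory neurons (-0.87 ± 0.17) and Nrg3, a further neuregulin, in oligodendrocytes (-1.64 ± 0.31). The list's median without Tgfa was -0.17 in astrocytes, beside 0.00 over all genes tested.

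Of 25 cadherins and catenins 16 were tested in astrocytes, and 1 fell beside Cdh4. Cdh19, a glial cadherin, was at 222.7 and 233.7 CPM in KO astrocytes and 512.8 and 556.9 in control (-1.23 ± 0.14, adjusted p = 0.000522), and it also fell in oligodendrocytes (-0.86 ± 0.18) and in whole cortex (-1.12 ± 0.14, adjusted p = 0.000962). In excitatory neurons Cdh18 (adjusted p = 0.00746), Cdh9 (-1.91 ± 0.37) and Cdh2 (-0.49 ± 0.09) fell and Cdh22 rose (+0.69 ± 0.14), and Cdh10 fell in oligodendrocytes (-0.97 ± 0.18). The list's median without Cdh4 was -0.05 in astrocytes and -0.27 in excitatory neurons, where long genes had a median of -0.26. Of 16 genes of the UNC13 family and vesicle priming, 12 were tested in astrocytes and 1 fell beside Unc13c, the active-zone gene Rims2 (113.0 and 129.2 against 185.5 and 243.3 CPM, -0.81 ± 0.18, adjusted p = 0.0361). In excitatory neurons the vesicle genes Vamp2 (+0.80 ± 0.10) and Rab3a (+0.78 ± 0.12) rose and Syt1 (-0.53 ± 0.12) fell. The median of this list without Unc13c was -0.42 in astrocytes.

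Around Rora, 17 of 20 ROR and REV-ERB receptors and clock genes were tested in astrocytes, and beside Rora 1 fell, the clock gene Npas2 (152.0 and 157.5 against 243.3 and 290.2 CPM, -0.78 ± 0.15, adjusted p = 0.0218). In excitatory neurons Per2 (+1.596 ± 0.29) and Cry1 (+0.91 ± 0.20) rose and Rorb fell, and Per1 rose in oligodendrocytes (+1.90 ± 0.39) and in cortex (+0.81 ± 0.17, adjusted p = 0.0334). The list's median without Rora was -0.21 in astrocytes and +0.16 in excitatory neurons. Of 25 genes of the AUTS2 family and Polycomb PRC1, 19 were tested in astrocytes and none but Auts2 was called there, nor was any of the list in the other 10 comparisons. Of 24 lipoprotein and cholesterol genes 19 were tested in astrocytes and none was called. Apod fell in cortex (-0.66 ± 0.12, adjusted p = 0.0172) and Abca1, a cholesterol exporter, in excitatory neurons (-1.63 ± 0.29).

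Of 30 genes of astrocyte function, all tested in astrocytes, 3 rose and 1 fell, where 2.09% of all genes were called, and their median was +0.09. The glycolytic enzyme Aldoc (436.2 and 528.1 against 302.8 and 265.5 CPM, +0.76 ± 0.15, adjusted p = 0.0205), glutamine synthetase Glul (+0.58 ± 0.12) and the claudin Cldn10 (+0.76 ± 0.16) rose, and the glutamate transporter Slc1a3 fell (-0.51 ± 0.12, adjusted p = 0.0458). In other comparisons S100b rose (+1.09 ± 0.14) and Nfia (-0.93 ± 0.15) and Slc4a4 (-0.69 ± 0.12) fell in excitatory neurons, and Glul rose in oligodendrocytes (+0.68 ± 0.18). Of 34 genes of reactive astrocytes 5 could be tested and 1 rose, Aspg, at 31.57 and 40.23 CPM against 6.34 and 1.24 (+3.03 ± 0.46, adjusted p = 0.00481). The complement gene C4b rose in cortex (+1.13 ± 0.16, adjusted p = 0.00305) and oligodendrocytes (+2.09 ± 0.55), and Sphk1 rose in excitatory neurons (+1.32 ± 0.30).

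Genes within 500 kb of the 6 genes were examined for calls. Between 19 genes (at Rora) and 71 genes (at Apoe) lie in each window, and calls were made at Tgfa, Unc13c, Cdh4 and Auts2. In astrocytes 2 of the 21 neighbours of Tgfa tested were called, in opposite directions, where 2.09% of all genes were. Nat8f2 (chr6:85865422-85869158), an acetyltransferase gene 326065 bases from Tgfa, rose by 3.79 ± 0.49 (adjusted p = 0.00169) and rose also in cortex (+4.36 ± 0.21, adjusted p = 5.20e-07), the 1 call among 28 neighbours tested there, and Tprkb (chr6:85911865-85930284), 264939 bases from Tgfa, fell (-1.22 ± 0.15, adjusted p = 0.00138). In excitatory neurons, with 6.84% of all genes called, 1 neighbour each was called of 25 tested at Tgfa, 7 at Unc13c, 13 at Cdh4 and 5 at Auts2. Alms1 near Tgfa fell (-0.71 ± 0.16), and Rsl24d1 near Unc13c (+0.95 ± 0.20), Rps21 near Cdh4 (+0.83 ± 0.18) and the noncoding gene Gm29681 near Auts2 (+1.68 ± 0.37) rose. Anxa4, 1 of 14 tested near Tgfa in oligodendrocytes, rose there (+1.25 ± 0.32). No neighbour of Rora or Apoe was called.

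Endogenous retroviruses, the best known targets of Trim28, are 1 class of transposable element (TE). TE copies of any class that overlap the 6 genes or lie within 50000 bases were taken from the counts of individual TEs in cortex. Of these, 6 copies had enough reads for a test, and none was called, where 2.73% of all 13997 copies tested were. Each of the 6 overlaps a gene, and each had a negative log2 fold change, from -0.13 to -1.20. The lowest was a PB1D10 copy on the reverse strand of Tgfa (chr6:86273496-86273602), with 10, 11 and 7 reads in KO and 23, 26 and 39 in control (-1.20 ± 0.35, adjusted p = 0.0605). An RMER17D copy inside Unc13c (chr9:73530864-73530961) had 6, 10 and 4 reads against 21, 11 and 18 (-0.85 ± 0.40, adjusted p = 0.583). Reads in such copies cannot be told from the transcript of the gene that holds them. The PB1D10 copy was called when control 64 was left out or library sizes were taken from the TEs, so that its call rests on those choices.

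The genes whose levels were most like those of each of the 6, over 24 sums of cell type and animal and among 15387 genes, were ranked by Pearson's r of log2(CPM + 1). These points share libraries, animals and the difference chosen here, and r is given as a description. For Tgfa they were Crebrf (0.946), Map4k4 (0.932) and Cd9 (0.920), for Apoe Ilk (0.974), Tcf7l2 (0.959) and Cd63 (0.956), for Rora Ctnnd2 (0.990) and Ntm (0.980) and for Auts2 Soga3 (0.958), Stox2 (0.957) and Akap6 (0.957). Unc13c and Cdh4 had weaker partners. Those of Unc13c were Rhbdl3 (0.872), Stk33 (0.868) and Ror1 (0.868), and those of Cdh4 were Kcnd3 (0.851), Gm43738 (0.848) and Dlgap1 (0.847). Among these partners Kcnd3 was also lower in KO astrocytes, at 9.14 and 15.4 CPM against 41.2 and 54.3, whereas Rhbdl3 was at 16.6 and 13.7 against 24.6 and 24.7 CPM.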

How the data were processed

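Bulk RNA-seq covered 32 libraries and nuclei RNA-seq 4. The authors deposited counts. Bulk reads were aligned with STAR 2.6.0 to GRCm38.p6 and counted per gene with featureCounts (Subread 1.6.3) from unique matches, or with TEtranscripts, whose table gave the Cas9-GFP and Stop-Cas9-GFP values. Nuclei counts are UMIs from Cell Ranger 3.0 on a pre-mRNA reference, so that intronic reads of long genes count. Copies of TEs have counts per copy. The table's 6 columns of no sample in this series were not used.

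Counts were fitted with edgeR 4.0.16 (filterByExpr, TMM, quasi-likelihood test, Benjamini-Hochberg over all genes), DESeq2 1.42.0 being an alternative. Bulk calls needed an adjusted p under 0.05 and an absolute log2 fold change over 0.5, nuclei the adjusted p alone. After removal of nuclei whose number of detected genes (log10) lay over 3 MADs from the median of that animal, the rest were clustered with Seurat 5.3.0 (2000 variable genes, 20 components, resolution 0.1), UMIs were summed per type and animal, and clusters were named from fixed markers by a scoring rule set after the clusters were seen. Doublets called by Scrublet in scanpy 1.11.5 were kept, and left out as an alternative. SE is the log2 fold change divided by the root of F. Bounds and floors (3 counts) cover counting error only. Whether animals of the groups overlap is given as a description, since the share of all genes without overlap was not counted. The paper describes its NPC groups as biological replicates. Nothing in the labels says that the cultures were derived separately, so p-values there may still measure technical spread.

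The 6 genes, the pathway lists and the tests were chosen with earlier results of these data known. Genes named beside the 6 are Trim28, markers, called list members (at most 4 per list and comparison, by adjusted p), called genes within 500 kb, and the 3 genes of highest r, of which 1 is not reported here. The medians by gene span, the astrocyte marker shares and the intervals of UMI ratios were added after the data were seen. The fits were tested on simulated data. CUT&RUN was not used.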

Additional observations from a re-analysis of the deposited data

Results flagged for a closer look

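An NPC culture guided to exon 3 stood apart from the other 5 KO cultures for 3 of the 6 genes. Its Apoe was 1005 CPM, where the next culture had 159.3 and the lowest 24.73. Its Tgfa was 9.30 CPM, with the next at 5.01 and the lowest at 3.27, and its Unc13c was 0.321 CPM, with the others at 0. With 5 cultures at 0 any value above 0 stands apart, and 1 lacZ culture had the same 6 counts (0.323 CPM). These are 3 of 30 groups examined by Dixon's test at the 95% level, which by chance flags about 1 in 20.

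Auts2 moved in opposite directions without overlap of animals in oligodendrocytes (log2 ratio of group means 0.36) and in excitatory neurons (-0.42), inhibitory neurons (-0.31), oligodendrocyte progenitors (-0.44) and microglia (-1.36). This difference between types was not tested. By the labels, Unc13c was higher in every flox library labelled KO (0.38) and lower in every Emx1-Cre KO cortex (-0.33), a difference that was not tested. The flox labels go against the level of Trim28, and the contrast of directions rests on them. Taken by Trim28 level, Unc13c was lower in the libraries with less Trim28 in both experiments.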

How the results depend on the processing

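With 2 animals per group, counts of calls hung on single animals, and the cause was not tested. In the nuclei a fit without 1 animal leaves 1 animal in its group, which is assumed to vary like the others. Of the 6 genes, the number called in NPCs (0) was 0 to 1 when each culture was left out, in Emx1-Cre cortex (0) it was 1 with DESeq2, 1 without the low-count filter and 0 to 1 with an animal left out (Tgfa each time), and in excitatory neurons (2) it was 0 without the filter and 0 without any 1 animal. By DESeq2 the excitatory calls were Unc13c (adjusted p = 0.00457), Auts2 (0.0204) and Apoe (0.0192), with Tgfa at 0.0518. Leaving out an animal gave 0 to 5 calls in inhibitory neurons, 0 to 2 in oligodendrocytes, 0 to 2 in progenitors and 0 to 1 in microglia, and no filter gave 2 in microglia (Auts2 and Apoe). The TE copies called (0) were 1 with TE library sizes and 0 to 1 with an animal left out.

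Over all genes, the astrocyte calls (215) were 110 with DESeq2, 521 without the filter and 65 to 977 with an animal left out. DESeq2 called 148 genes in NPCs, 31 in Cas9-GFP, 4 in Stop-Cas9-GFP and 37 in flox nuclei, and 1695, 13, 88, 6 and 1 in excitatory, inhibitory, oligodendrocyte, progenitor and microglia nuclei. Without the filter there were 38, 35, 19 and 546 calls in Cas9-GFP, Stop-Cas9-GFP, flox and cortex libraries, and 0, 68 and 87 in excitatory, progenitor and microglia nuclei. TEtranscripts counts gave 11 in flox libraries. In progenitors all nuclei gave 13 and removal of doublets 12. With an animal or culture left out, calls ranged over 2 to 58 in NPCs, 4 to 6 in Cas9-GFP, 1 to 2 in Stop-Cas9-GFP, 5 to 8 in flox and 104 to 344 in cortex libraries, and over 0 to 326, 18 to 2907, 94 to 683, 19 to 150 and 0 to 61 in excitatory, inhibitory, oligodendrocyte, progenitor and microglia nuclei.

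The astrocyte values kept their direction in all 60 fits, with an animal left out ranging over -8.40 to -6.52 for Unc13c, -4.80 to -4.49 for Cdh4, -5.01 to -4.15 for Tgfa, -0.80 to -0.57 for Rora, -0.58 to -0.53 for Auts2 and 0.32 to 1.36 for Apoe. The genes were chosen by these values, so the ranges describe them and test nothing. Elsewhere 475 of 538 log2 fold changes kept direction and call, 11 lost the call, 20 gained it and 32 turned, none of the latter called with all samples. The turned values were Auts2 with TEtranscripts counts (0.22 in NPCs, -0.0399 in flox libraries), Tgfa in Stop-Cas9-GFP nuclei with DESeq2 (0.000426) and without the filter (0.00288), and Unc13c in progenitors without doublets (-0.00166). With a sample left out, ranges that crossed 0 were, in NPCs, -0.33 to 0.24 (Rora), -0.64 to 0.42 (Auts2) and -1.54 to 1.82 (Apoe), in Cas9-GFP nuclei -0.0495 to 0.24 (Apoe), in Stop-Cas9-GFP nuclei -0.10 to 0.16 (Cdh4), -0.0744 to 0.10 (Tgfa), -0.16 to 0.11 (Rora) and -0.0105 to 0.0683 (Auts2), in flox libraries -0.0316 to 0.60 (Rora) and -0.0549 to 0.60 (Auts2), in excitatory neurons -0.15 to 0.11 (Cdh4), in inhibitory neurons -0.76 to 1.52 (Tgfa), in progenitors -0.15 to 0.19 (Unc13c), -1.29 to 0.0100 (Cdh4), -0.33 to 0.0078 (Rora) and -0.0942 to 1.29 (Apoe), and in microglia -0.30 to 0.0088 (Tgfa).

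In NPCs a replicate block of the 2 number series of cultures gave 136 calls over all genes in place of 32, turned Apoe to -0.39 and changed no call of the 6 genes (Tgfa -1.21, adjusted p = 0.205). The series difference correlated between KO and lacZ cultures over genes (r = 0.854), but the labels do not say what the series share. TEtranscripts against featureCounts could not be compared for Cas9-GFP and Stop-Cas9-GFP, whose lone lacZ control could not be left out.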
